A study of Homo sapiens with 27 samples.

Results

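The comparison set the re-engineered hyperactive form of the piggyBac transposase against the hyperactive form, both supplied with the wild-type transposon, in HCT116, a long-established cell line from a human colorectal carcinoma. Its members were the libraries whose titles name these combinations, 3 for the re-engineered hyperactive enzyme (construct name delta74hyPB2CD) and 3 for the hyperactive enzyme, 6 of the 27 libraries of the study. The labels do not state which residues or domains the words hyperactive and re-engineered stand for. The remaining libraries held parental piggyBac, its re-engineered form without the hyperactive changes, short or symmetric transposons, and piggyBat. The parental and the re-engineered parental libraries, 3 each and also with the wild-type transposon, served as the second background in which the same re-engineering could be compared.

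All 6 libraries came from cells transfected with a self-reporting transposon and kept in puromycin at 3 µg/ml for 2 weeks, so each library is a pool of selected cells. Such a transposon drives transcription outward across its end into the neighbouring genome, so that the junction is read from RNA. An insertion is therefore seen only where the cell survived selection and the outward transcript was made. The data are positions of insertions, with no measure of gene expression, so markers of the cell line could not be checked.

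PiggyBac is a cut-and-paste DNA transposase, first found in an insect. It excises the transposon from a donor and inserts it at the tetranucleotide TTAA, which is duplicated at the ends of the new insertion and restored without a scar on excision. In mammalian cells its insertions are known to favour open chromatin, including the surroundings of transcription start sites. The series title names phosphorylation of the N-terminal part of the transposase as inhibitory, and the comparison asks what the re-engineered protein does to the insertion pattern once the hyperactive changes are already present.

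The libraries of the 6 members listed between 348662 and 483617 peaks, with file totals taken as mapped reads of 8118085 to 9749822. Hyperactive replicates 1 and 2 were linked. They shared 311492 positions, which is 75.4% of the first list and 76.3% of the second, whereas replicate 3 held 28.6% and 29.0% of their positions. At the shared positions the peak heights of the linked pair differed with a chi-square per degree of freedom of 1.44, against 7.33 to 13.1 in the other 14 pairs of the 6 libraries. The pair therefore differed by more than counting error alone but far less than any other pair, and was not counted as 1 deposited library. The numbers of called genes, bins and chromosomes are given with 6 libraries and again with the linked pair averaged and counted once, and the coding genes and bins named by rule for the largest differences passed in both fits. Nothing in the labels says that replicates came from separate transfections, so the tests measure the spread between these libraries only.

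Promoter windows show what the enzyme recognises and where the groups differed. The following sequences are the strongest insertion targets upstream of coding start sites, 3 listed only in all re-engineered hyperactive libraries, 3 listed only in all hyperactive libraries and 3 listed in all 6. They come from the RefSeq promoter table for GRCh38.p14, read 5′ to 3′ on the strand of the gene, and the capitals mark the 4 bases of the listed site.
GNAL: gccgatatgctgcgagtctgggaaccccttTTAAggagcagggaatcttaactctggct
ZFX: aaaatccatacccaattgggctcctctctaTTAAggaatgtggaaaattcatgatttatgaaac
PPP2R2C: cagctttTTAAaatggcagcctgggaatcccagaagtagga
TENT2: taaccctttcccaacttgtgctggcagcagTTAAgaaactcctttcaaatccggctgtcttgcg
RANBP2: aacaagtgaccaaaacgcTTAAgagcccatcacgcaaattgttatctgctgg
THAP2: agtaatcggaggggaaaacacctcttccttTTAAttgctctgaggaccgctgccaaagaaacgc
DGKA: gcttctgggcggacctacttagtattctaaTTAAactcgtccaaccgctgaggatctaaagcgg
GSTO1: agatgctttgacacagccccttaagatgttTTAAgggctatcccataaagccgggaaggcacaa
SF3B1: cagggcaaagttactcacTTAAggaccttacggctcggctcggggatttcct

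The GNAL stretch lies at chr18:11857694-11857752, the ZFX stretch at chrX:24148742-24148805 and the PPP2R2C stretch at chr4:6421328-6421368 on the minus strand. GNAL encodes a G protein alpha subunit, ZFX a zinc finger transcription factor and PPP2R2C a regulatory subunit of protein phosphatase 2A. The GNAL site had peak heights of 53, 118 and 70 reads in the re-engineered hyperactive libraries, the ZFX site 48, 38 and 68, and the PPP2R2C site 7, 41 and 22. The GNAL and ZFX positions lay inside a peak of the same strand in all 3 hyperactive libraries, so only their exact edge was particular to the lists of one group. The PPP2R2C position was inside no hyperactive peak, and the nearest hyperactive position was 3938 bases away.

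The TENT2 stretch lies at chr5:79612245-79612308, the RANBP2 stretch at chr2:108719232-108719283 and the THAP2 stretch at chr12:71664125-71664188. TENT2 is a poly(A) polymerase, RANBP2 a nucleoporin and THAP2 a THAP-domain protein. In the hyperactive libraries the TENT2 site had heights of 180, 167 and 222 reads, the RANBP2 site 138, 145 and 183, and the THAP2 site 156, 155 and 131. None of these 3 positions lay inside a peak of the same strand in any re-engineered hyperactive library, and their nearest re-engineered hyperactive positions were 188, 117 and 157 bases away.

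The sites found in all 6 libraries lay before DGKA, a diacylglycerol kinase, at chr12:55927937-55928000, before GSTO1, a glutathione transferase, at chr10:104254723-104254786, and before SF3B1, a splicing factor, at chr2:197435227-197435278 on the minus strand. The DGKA site had heights of 8, 88 and 114 reads in the re-engineered hyperactive libraries and 223, 229 and 200 in the hyperactive libraries. The GSTO1 site had 74, 122 and 167 against 161, 160 and 156. The SF3B1 site had 65, 191 and 85 against 192, 141 and 163. The groups overlapped at GSTO1 and SF3B1, and the re-engineered hyperactive values spread more widely at all 3 sites.

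The target sequence itself did not separate the groups. Of the sites that fell inside a promoter window, 97.7%, 97.0% and 97.8% in the re-engineered hyperactive libraries and 97.8%, 97.8% and 97.0% in the hyperactive libraries had TTAA at the listed position. The difference of the means was -0.0093 percentage points (two-sided exact permutation test, n = 3 and 3, p = 1), and it ranged from -0.28 to 0.24 when 1 library was left out.

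A longer palindrome around the target was found at similar shares, without a test. Targets inside TTTAAA, which reads the same on both strands and contains the 4-base target, made up 22.8%, 21.7% and 21.9% of the used promoter targets in the re-engineered hyperactive libraries. They made up 21.8%, 21.9% and 21.1% in the hyperactive libraries. The means were 22.1% ± 0.59 and 21.6% ± 0.42 (SD, n = 3 each), and the ranges overlapped. Of all 28600 targets in the 34781 windows, which run from 250 bases before to 50 bases after each start, 16.5% lay in the palindrome. The target was present in 46.1% of the windows and the palindrome in 12.3%.

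How many of these promoter targets were used did differ. The re-engineered hyperactive libraries held 1590, 1836 and 1953 sites in promoter windows and the hyperactive libraries 2740, 2721 and 2953. Expressed over the 28600 TTAA of the windows, 5.43%, 6.23% and 6.68% were used against 9.37%, 9.30% and 10.01%. All 3 re-engineered hyperactive values were below all 3 hyperactive values, with a ratio of means of 0.639. This share grows with the number of sites in a library. With every library thinned to 336323 sites, 5.43%, 5.71% and 5.29% were used against 7.64%, 7.79% and 7.52%, a ratio of 0.716, and the difference was -2.17 against -3.45 percentage points. Of the promoter TTAA, 5758 were used in at least 1 of the 6 libraries and 333 in all 6. Use in all libraries of one group and none of the other was listed for 13 targets in the re-engineered hyperactive group and for 297 in the hyperactive group, a count that the linked pair raises in the latter.

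The depletion extended over about 2 kb on either side of coding start sites. Within 1 kb of a protein-coding start lay 3.09%, 3.07% and 2.96% of all sites of the re-engineered hyperactive libraries and 4.05%, 4.09% and 3.92% of the hyperactive libraries. The means were 3.04% ± 0.069 and 4.02% ± 0.087 (SD, n = 3 each), a ratio of 0.757, and the groups did not overlap. The exact two-sided permutation test gave p = 0.1, the smallest that 3 libraries against 3 allow; Benjamini-Hochberg adjustment over the 15 measures compared raised it further. No measure in this design could pass 0.05 alone, so sizes and overlap are given throughout.

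The ratio was lowest at the start site and returned to 1 with distance. It was 0.687 in the 250 bases before the start and 0.676 in the 250 bases after it, where the means were 19.7 ± 0.79 and 29.1 ± 0.40 sites per 10000 (SD, n = 3 each). Between 500 and 750 bases upstream, where both groups were densest, they had 53.4 ± 0.19 and 67.9 ± 1.2 sites per 10000. The ratio reached 0.919 in the class from 1500 to 1750 bases upstream and 0.917 in the class from 1500 to 1750 bases downstream. From 2000 to 2250 bases downstream the groups overlapped, with 26.4 ± 0.62 against 27.3 ± 0.56 sites per 10000. Farther downstream, up to 5000 bases, they were apart only from 3250 to 3500 and from 3750 to 4000 bases, where the re-engineered hyperactive group was higher (ratios of 1.05 and 1.03).

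**Figure D1:**
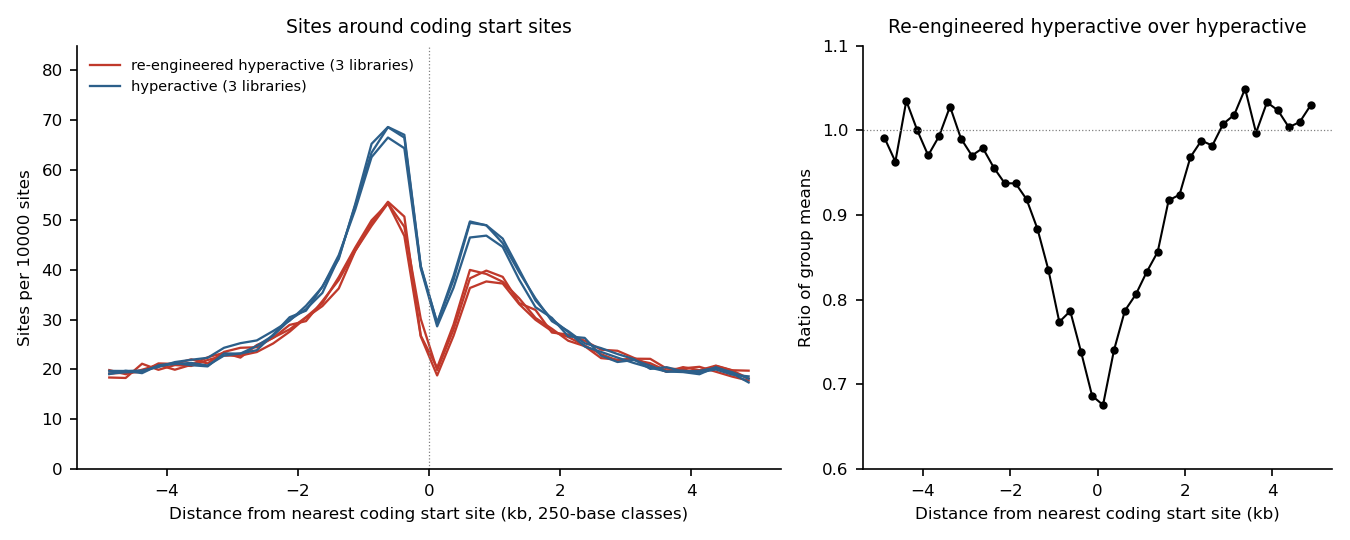
Left, sites per 10000 sites of each library (vertical axis) by distance from the nearest coding start in kb (horizontal axis, negative upstream), 1 line for each of the 3 re-engineered hyperactive and 3 hyperactive libraries. Right, the ratio of the group means; both groups dip at the start itself, the 3 re-engineered hyperactive lines run below the 3 hyperactive lines around it, and the ratio falls to 0.676 just after the start.

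At intermediate distances, from 5 to 100 kb, the re-engineered hyperactive group held the larger shares. Counted by distance to the nearest coding start, the re-engineered hyperactive group held 0.474% of its sites within 250 bases against 0.695%, and 2.56% against 3.32% between 250 and 1000 bases. From 5 to 20 kb it held 17.1% ± 0.16 against 16.3% ± 0.093, and from 20 to 100 kb 36.4% ± 0.049 against 35.3% ± 0.040 (SD, n = 3 each). Its shares were lower from 1 to 5 kb, with 8.01% ± 0.077 against 8.41% ± 0.037, and from 100 to 500 kb, with 24.7% ± 0.24 against 24.9% ± 0.025. Beyond 500 kb the shares were 10.8% ± 0.062 and 11.0% ± 0.075. The groups did not overlap in any of these classes. As shares of a fixed total they cannot move independently.

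The difference at starts and gene ends was larger in tall peaks. In sites of 5 or 6 reads, 16.4% of the re-engineered hyperactive and 16.7% of the hyperactive sites lay within 5 kb of either end of a coding gene, and the groups overlapped. In sites of 50 reads or more the shares were 22.3% ± 0.87 and 25.9% ± 0.026 (SD, n = 3 each), without overlap. Over all heights the gene-end share was 17.6% ± 0.16 against 18.9% ± 0.088, a difference of -1.25 percentage points. Weighting each peak by its summed coverage in place of counting sites, a choice made after seeing the data, gave start-site shares of 4.12%, 4.29% and 4.19% against 6.63%, 6.66% and 6.55%, a difference of -2.41 percentage points, more than 1.5 times the unweighted -0.978. The gene-end share weighted in this way was 20.1% ± 0.33 against 22.6% ± 0.074, a difference of -2.47.

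Inside genes the re-engineered hyperactive group was slightly richer. Any annotated gene held 64.7%, 64.5% and 64.1% of its sites against 63.7%, 63.7% and 63.3%, and coding genes held 51.0% ± 0.36 against 49.6% ± 0.25 (SD, n = 3 each). Among peaks in exactly 1 coding gene, 38.9%, 36.4% and 37.3% were listed on the strand of the gene against 35.8%, 35.7% and 34.4%. Peaks on the opposite strand were the majority in all 6 libraries. The ranges of this share did not overlap, with re-engineered hyperactive replicate 2 nearest to the hyperactive group.

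Shares far from genes differed little. The share over 100 kb from every coding gene was 14.9% ± 0.14 in the re-engineered hyperactive group and 15.3% ± 0.089 in the hyperactive group, and the share in the 720 bins of 1 Mb with most coding genes (at least 9) 32.98% ± 0.41 and 32.15% ± 0.20 (SD, n = 3 each). Both pairs of ranges were separate over all sites. Among peaks of at least 10 reads the differences shrank from -0.42 to -0.060 and from 0.83 to 0.13 percentage points.

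The number of insertions was not separated between the groups. The re-engineered hyperactive libraries had 336323, 366079 and 427341 distinct sites and the hyperactive libraries 412968, 408331 and 453193. The means were 376581 ± 46409 and 424831 ± 24672 (SD, n = 3 each), the ranges overlapped, and the exact permutation test of the log2 numbers gave p = 0.3 (0.321 adjusted). Per 1000000 reads of the file total there were 41429, 42084 and 45632 sites against 44468, 45232 and 46482, again overlapping. Site numbers of selected pools depend on transfection and survival as well as on the enzyme, and these were not measured.

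Insertion at the same TTAA in both orientations was less frequent. Positions listed on both strands were 12329, 13754 and 16875 in the re-engineered hyperactive libraries, which is 3.67%, 3.76% and 3.95% of positions. In the hyperactive libraries they were 26436, 26303 and 30415, or 6.40%, 6.44% and 6.71%. The groups did not overlap and the ratio of mean shares was 0.582. This share also grows with the number of insertions listed. With the stranded peaks thinned to 348652 in every library, the shares were 3.67%, 3.43% and 3.06% against 5.03%, 5.14% and 4.75%, a ratio of 0.681 and a difference of -1.59 in place of -2.73 percentage points. Since TTAA reads the same on both strands, such a position holds insertions in both orientations in the pool.

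Recurrence between replicates was also lower. Leaving out the linked pair, the mean share of a library's positions found in another replicate of its group was 16.3%, 15.5% and 14.2% for the re-engineered hyperactive enzyme and 28.6%, 29.0% and 26.1% for the hyperactive enzyme. With every library thinned to 336323 positions, 2 re-engineered hyperactive libraries shared between 13.5% and 13.9%, and hyperactive replicate 3 shared 21.3% and 21.5% with the linked replicates. At that number the measure differed by -7.65 percentage points, against -12.5 without thinning. A re-engineered hyperactive library and a hyperactive library shared 16.0% to 16.4%, so each re-engineered hyperactive library had more positions in common with every hyperactive library than with its own replicates.

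Over the 6 libraries 1553102 positions were listed at least once and 15234 in all. In all 3 re-engineered hyperactive libraries and no hyperactive library there were 2593 positions, and in all 3 hyperactive libraries and no re-engineered hyperactive library 31892. The linked pair enters the second number as if it were independent. Counted with the linked replicates taken as 1 library, 47971 positions were in hyperactive replicate 3 and replicate 1 or 2 and in no re-engineered hyperactive library. Against these, 47657 were in at least 2 re-engineered hyperactive libraries and in no hyperactive library. The rules are unlike, since any 2 of 3 libraries could meet the second, while the first always required hyperactive replicate 3. These counts therefore do not show whether the contrast remained. At equal site numbers unlinked hyperactive pairs shared 21.4% of positions on average and re-engineered hyperactive pairs 13.7%. Of the 2593, 23.2% lay inside a same-strand peak of at least 1 hyperactive library, and of the 31892, 16.0% inside one of at least 1 re-engineered hyperactive library.

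The tallest positions listed in only one group had close neighbours in the other group. In the re-engineered hyperactive libraries they were the site inside MRPL48, a mitochondrial ribosomal protein gene, at chr11:73788927-73788930 with heights of 276, 268 and 373 reads, and 4 others at chr6:158850543-158850546, chr15:65304881-65304884, chr1:94622115-94622118 and chr7:131012331-131012334. All 5 lay inside hyperactive peaks in all 3 hyperactive libraries, with a hyperactive position between 22 and 91 bases away. In the hyperactive libraries the tallest was inside PCDH7 at chr4:30822519-30822522, with 295, 297 and 327 reads, followed by chr6:158850504-158850507, chr15:65304852-65304855, a site in IRAG1 at chr11:10666749-10666752 and chr12:75942867-75942870. On chromosomes 6 and 15 the tallest positions of the groups were 39 and 29 bases apart. The PCDH7 and IRAG1 positions lay inside peaks of 2 re-engineered hyperactive libraries and the other 3 inside none, with re-engineered hyperactive positions 26 to 92 bases away from the 5. At these tall sites the lists differed in the exact position and not in whether insertions were found within 100 bases.

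Peaks themselves were wider and taller in the median under the re-engineered hyperactive enzyme. The median peak width was 124, 124 and 119 bases against 102, 101 and 95, and the median height 13, 13 and 12 reads against 11, 11 and 10. Among peaks of at least 10 reads the median heights met, with 21, 21 and 19 reads against 19, 19 and 18, and the log2 difference was 0.12 in place of 0.25. The tallest 1% of sites held 6.48%, 6.45% and 6.88% of the summed height against 7.71%, 7.78% and 8.09%. Wider peaks can take in neighbouring sites, and the part of peak width in the results on counts of sites was measured only for 3 shares. When same-strand sites within 500 bases of the previous one were counted once, also chosen after seeing the data, the start-site share was 2.88% ± 0.0996 against 3.65% ± 0.095 and the gene-end share 17.3% ± 0.18 against 18.3% ± 0.042 (SD, n = 3 each), both still without overlap. The share in insertion hot windows, described next, lost most of its difference under that count.

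**Figure D2:**
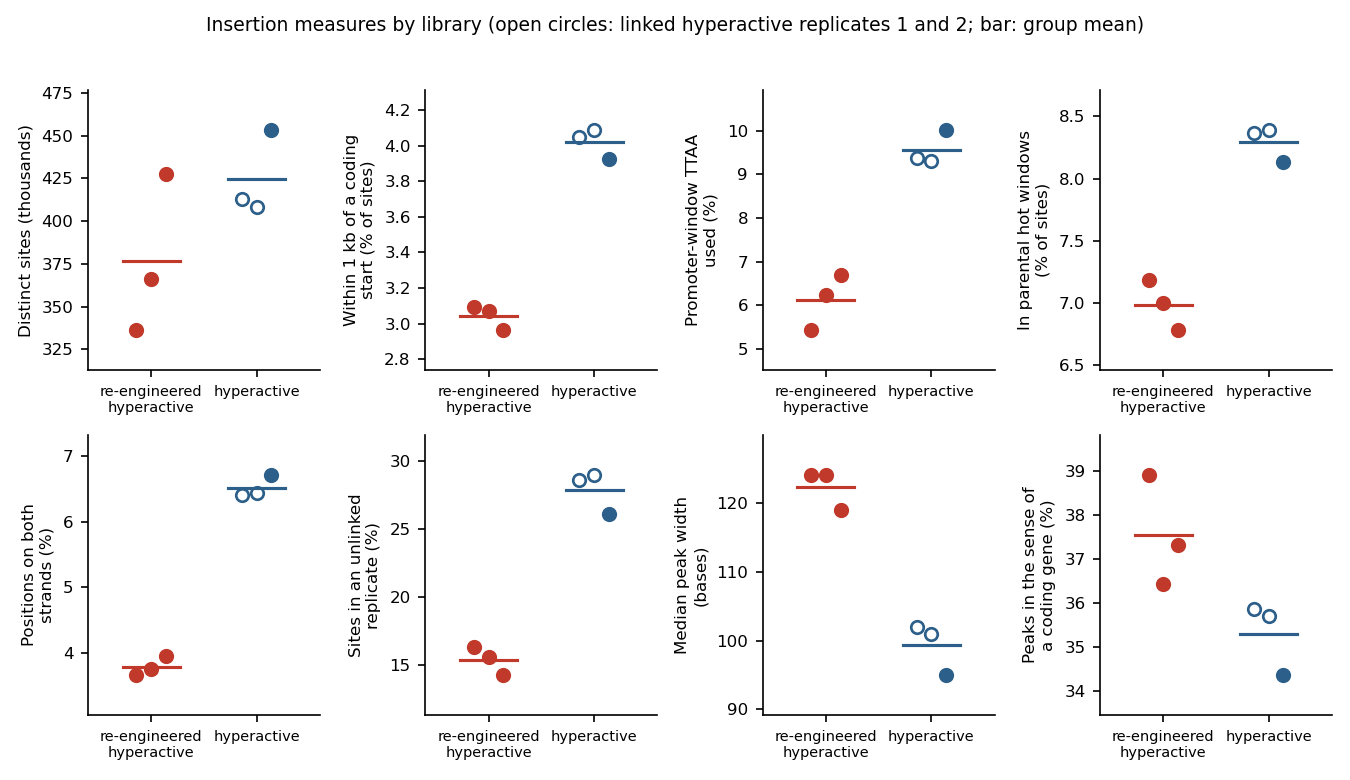
Measures of each library on vertical axes with the units given (none starts at 0), with the re-engineered hyperactive libraries left and the hyperactive libraries right in each panel; circles are libraries, open circles the linked hyperactive replicates 1 and 2, and bars group means. The groups overlap in the number of distinct sites and are separate in the other 7 panels.

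Loci that parental piggyBac hits most often were hit less by the re-engineered hyperactive enzyme. The densest 1% of 100-kb windows of the 3 parental libraries, 265 windows, held 7.18%, 6.996% and 6.78% of the re-engineered hyperactive sites and 8.37%, 8.39% and 8.13% of the hyperactive sites. The means were 6.99% ± 0.20 and 8.30% ± 0.14 (SD, n = 3 each), without overlap. Weighted by summed coverage the shares were 11.4% ± 0.31 and 16.0% ± 0.41. With neighbouring sites counted once they were 5.30% ± 0.23 and 5.54% ± 0.16, and the groups overlapped.

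The gene test compared the number of sites in each annotated gene per 100000 sites of the library, with at least 60 sites over the 6 libraries. Of 6951 genes tested, 192 passed (2.76%; limma, Benjamini-Hochberg adjusted p under 0.05), 96 higher and 96 lower in the re-engineered hyperactive group (1.38% of the genes tested in each direction). With the linked pair averaged 36 passed (0.518%), 14 higher and 22 lower. The count was 41 without hyperactive replicate 1, 28 without hyperactive replicate 2, 63 without re-engineered hyperactive replicate 2 and 112 without re-engineered hyperactive replicate 1. Scaling each library by its median gene in place of its number of sites gave 67 higher and 186 lower, and dropping the filter gave 11, all lower.

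The direction of the calls followed how often parental piggyBac used the gene, a measure from libraries outside the comparison. Of 5292 coding genes tested, 151 passed (2.85%). Genes were parted into 5 classes of equal size by parental site density. In the densest class, from 8.04 to 80.5 sites per 100000 sites and 100 kb of gene, 4 of 1059 genes passed as higher and 49 as lower, and the median log2 difference was -0.09. In the other classes, from the sparsest up, 29, 25, 24 and 10 genes were higher and 6, 1, 0 and 3 lower, with medians of 0.09, 0.09, 0.10 and 0.04. With the linked pair averaged, 15 genes of the densest class were lower and 1 higher, while the other classes had 5, 2, 5 and 1 higher and 0, 0, 0 and 1 lower.

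**Figure D3:**
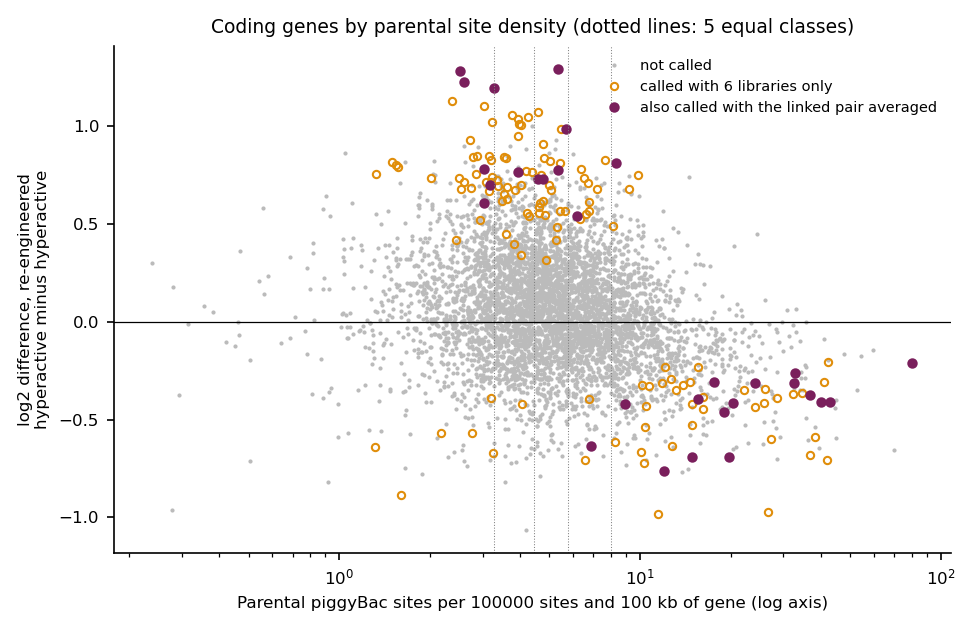
Each point is a coding gene, with its parental piggyBac site density on a log horizontal axis and its log2 difference between the groups on the vertical axis; grey points were not called, open orange circles were called with 6 libraries only and filled purple circles also with the linked pair averaged, and dotted lines part the 5 classes. Called decreases lie mostly in the densest class and called increases mostly to its left.

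Genes that fell were well-used targets with moderate differences. Called coding genes had a median of 101 sites per library among decreases and 24.2 among increases, against 20.7 over all coding genes tested. The smallest called log2 differences were 0.20 in size among decreases and 0.32 among increases. Smaller differences can pass where sites are many, so the sizes of called differences in dense and sparse genes are not directly comparable. ZBTB20, a BTB zinc finger transcription factor gene at chr3:114314500-115147288, held 462, 469 and 522 sites in the re-engineered hyperactive libraries and 726, 714 and 750 in the hyperactive libraries. Per 100000 sites that is 129 ± 7.7 against 172 ± 5.7 (SD, n = 3 each), a log2 difference of -0.41 ± 0.046 (SE; limma adjusted p = 1.96e-05, and 1.71e-05 with the linked pair averaged). PPP3CA, the catalytic subunit of calcineurin at chr4:101023418-101347526, held 360, 376 and 433 sites against 596, 576 and 582, a log2 difference of -0.41 ± 0.050 (SE). Every hyperactive library exceeded every re-engineered hyperactive library at both genes.

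Among coding genes that passed both with 6 libraries and with the linked pair averaged, the steepest decrease was at ETV1, an ETS transcription factor gene at chr7:13891229-13991425. It held 31, 30 and 38 sites against 70, 60 and 64, or 8.77 ± 0.52 against 15.3 ± 1.5 per 100000 sites, a log2 difference of -0.76 ± 0.13 (SE; limma adjusted p = 0.00196). CCDC50, which encodes a coiled-coil protein, held 33, 31 and 45 sites against 62, 70 and 69. CD96, an immunoglobulin superfamily receptor of T and natural killer cells, held 38, 41 and 61 against 86, 82 and 86. The groups were apart at each of the 3 genes, with log2 differences of -0.69 at both CCDC50 and CD96.

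ITGBL1, an integrin beta-like gene, held 44, 44 and 72 sites against 94, 83 and 101, and re-engineered hyperactive replicate 3 came nearest to the hyperactive group. PAM, an enzyme that amidates peptide hormones, fell by 0.46 and UTRN, the dystrophin relative utrophin, by 0.42 on the log2 scale. ARHGAP18, a GTPase-activating protein, held 145, 170 and 192 sites against 246, 246 and 268 and fell by 0.41. SEMA3A, a secreted axon guidance factor, fell by 0.39, MSRB3, a methionine sulfoxide reductase, by 0.38, and MBNL2, an RNA-binding splicing regulator, by 0.32. MSRB3 overlaps the noncoding gene MSRB3-AS1, which was also called, and sites in the shared stretch were counted for both.

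Genes that rose were sparser targets, and their differences rest on few sites. UHRF2, a ubiquitin ligase that binds modified chromatin, at chr9:6413199-6507054, held 32, 30 and 33 sites against 11, 8 and 26, or 8.48 ± 0.93 against 3.45 ± 2.0 per 100000 sites, a log2 difference of 1.29 ± 0.24 (SE; limma adjusted p = 0.00656). Hyperactive replicate 3 lay far above the linked pair there, and the log2 difference ranged from 1.01 to 1.68 when 1 library was left out. XRN1, a 5′ to 3′ exoribonuclease, held 12, 23 and 19 sites against 9, 5 and 7, a log2 difference of 1.28 ± 0.26 (SE). CFAP221, a cilium-associated protein gene, held 17, 16 and 18 against 7 in every hyperactive library, a log2 difference of 1.23 ± 0.23 (SE).

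SLC26A8, an anion transporter, held 15, 16 and 18 sites against 9, 5 and 7, and SEPTIN11, a cytoskeletal GTPase, 24, 25 and 26 against 14, 11 and 15. SCAF4, which binds RNA polymerase II, held 27, 31 and 35 against 18, 18 and 21. The log2 differences were 1.20 at SLC26A8, 0.99 at SEPTIN11 and 0.81 at SCAF4. MYO9A, an unconventional myosin, rose by 0.78, NIPBL, the cohesin loader, by 0.78, PAN3, a subunit of a deadenylase, by 0.77 and LCLAT1, a cardiolipin-remodelling acyltransferase, by 0.73. MEF2A, a MADS-box transcription factor, rose by 0.73 and STX8, an endosomal syntaxin, by 0.70. Some of the calls rested on single libraries. Without hyperactive replicate 2, XRN1, SLC26A8, SEPTIN11, SCAF4, PAN3, LCLAT1, STX8 and CCDC50 had limma adjusted p between 0.0544 and 0.0808. Without hyperactive replicate 1 SCAF4 and MYO9A did not pass (0.0518 and 0.0832), and without hyperactive replicate 3 NIPBL and PAN3 did not (0.0825 and 0.132). Without re-engineered hyperactive replicate 1 MYO9A, NIPBL and PAN3 were lost (0.0548, 0.107 and 0.156), without replicate 2 XRN1, SLC26A8, MYO9A, NIPBL and MEF2A (0.0510 to 0.0796) and without replicate 3 PAN3 (0.107). UHRF2, CFAP221 and the named decreases other than CCDC50 passed in each of these fits.

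**Figure D4:**
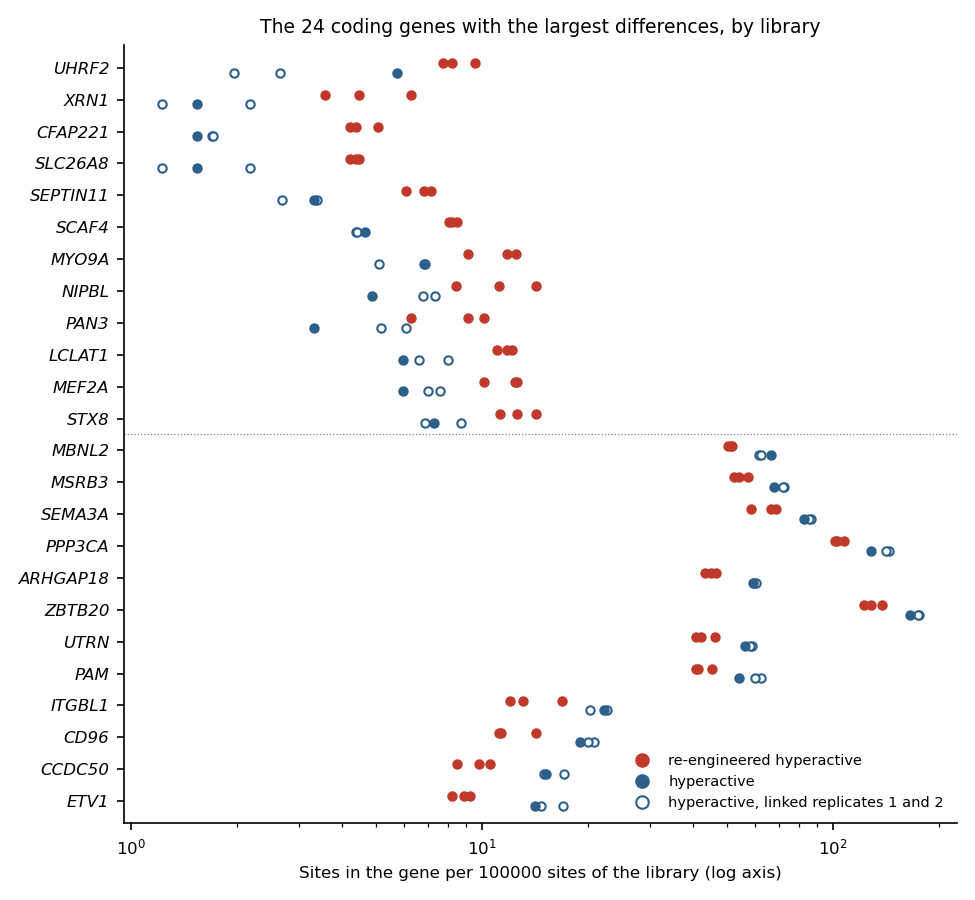
Sites in each of the 24 coding genes per 100000 sites of the library, on a log horizontal axis, with genes as rows; red circles are re-engineered hyperactive libraries, blue circles hyperactive libraries, and open blue circles the linked replicates 1 and 2. The genes above the dotted line were higher in the re-engineered hyperactive group and sit mostly below 15 sites per 100000, while those below the line reach 172 in the mean of the hyperactive libraries at ZBTB20.

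Besides ZBTB20, 3 other genes were singled out after their values had been seen, as large or dense targets. PCDH7, a protocadherin gene at chr4:30720369-31146800 and the densest parental target among the coding genes tested, held 1071, 1097 and 1212 sites against 1457, 1428 and 1546, a log2 difference of -0.21 ± 0.035 (SE; limma adjusted p = 0.00196). VTI1A, a vesicle SNARE gene at chr10:112446988-112855368, held 426, 478 and 527 against 615, 627 and 699, a log2 difference of -0.26 ± 0.043 (SE). VMP1, a membrane protein of autophagy, held 162, 158 and 194 against 192, 184 and 211, with a log2 difference of -0.02 and a 95% confidence interval from -0.16 to 0.13, and did not pass.

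Lists of genes with roles in colorectal cells and of gene classes were set beside all genes tested, coding and noncoding, whose median log2 difference was 0.01. Among coding genes alone the medians of the 5 density classes, from the sparsest up, were 0.09, 0.09, 0.10, 0.04 and -0.09. Of 34 genes of the receptor tyrosine kinase, RAS and PI3K list, 17 had enough sites to be tested, 1 rose and 1 fell, and 14 differences were above 0, with a median of 0.23. EGFR, the epidermal growth factor receptor, held 76, 92 and 107 against 126, 118 and 153 (log2 difference -0.35 ± 0.089, SE; limma adjusted p = 0.0356). The groups were separate at EGFR with 6 libraries. When 1 library was left out, EGFR passed only without re-engineered hyperactive replicate 3 (limma adjusted p from 0.0675 to 0.134 without each of the others). The call did not hold with the linked pair averaged, where the limma adjusted p was 0.0932.

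Of 28 gut epithelial transcription factor genes 9 were tested, and 1, KLF5, fell. KLF5, a Krüppel-like factor of intestinal crypts, held 22, 19 and 26 sites against 38, 42 and 45 (log2 difference -0.68 ± 0.15, SE; limma adjusted p = 0.0177, and 0.0792 with the linked pair averaged). It had a limma adjusted p of 0.0701 without hyperactive replicate 1, 0.111 without hyperactive replicate 2 and 0.0623 without re-engineered hyperactive replicate 2. Of the 9 differences 1 was above 0, that of HNF4A at 0.22, and the median was -0.10. Among 24 epithelial surface and keratin genes 9 were tested and none passed, with a median of -0.10.

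In the Wnt pathway list 15 of 36 genes were tested and none passed; the median was 0.15, and the values ran from -0.35 at RNF43, a ubiquitin ligase that removes Wnt receptors (limma adjusted p = 0.0527), to 0.61 at the receptor FZD6 (limma adjusted p = 0.161). In the list of tumour suppressors and cell-cycle brakes 20 of 32 were tested and none passed, with a median of 0.16, from -0.66 at CDKN1B, a cyclin-dependent kinase inhibitor, to 0.49 at SMAD4, a mediator of TGF-beta signalling. Of 41 chromatin readers and remodellers 28 were tested and none passed, with a median of 0.12.

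The lists of fragile site and long neuronal genes held no call. Of the 1059 longest coding genes tested (at least 224 kb), 26 passed as higher and 25 as lower. At such shares lists of this size can hold no call without differing from other long genes. Of 24 giant genes of common fragile sites 20 were tested with a median of 0.05, and LRP1B, a lipoprotein receptor relative, came nearest to a call (log2 difference -0.20 ± 0.057, SE; limma adjusted p = 0.0521). Of 30 long neuronal genes 17 were tested, with a median of 0.04. Of the cytoskeleton and adhesion list 21 of 32 were tested, with a median of 0.00. Only 2 of 71 ribosomal protein genes, 3 of 24 blood cell genes and 2 of 20 liver genes reached the site minimum, and none passed. The lists together held 3 calls, 1 higher and 1 lower among 17 tested and 1 lower among 9 tested, and none in the other lists. Over all genes tested 2.76% were called, and so few calls are not read as a result about the lists.

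In 1-Mb bins the same relation to density appeared. Of 2582 bins 194 passed (7.51%; limma, adjusted), 90 higher (3.49%) and 104 lower (4.03%). With the linked pair averaged 94 passed (3.64%), 33 higher (1.28%) and 61 lower (2.36%). Scaling by the median bin gave 55 higher and 144 lower. Without re-engineered hyperactive replicate 2 the count was 122, without hyperactive replicate 1 it was 99 and without hyperactive replicate 2 it was 87. Among 5 equal classes of bins, the class with most parental sites had 11 higher and 73 lower, with a median of -0.03, while the other classes, from the sparsest up, had 14, 17, 25 and 23 higher and 3, 5, 14 and 9 lower. By number of coding genes, the poorest class had 7 higher and 20 lower and the richest 26 higher and 9 lower, with medians of -0.01 and 0.06. With the linked pair averaged these were 3 and 11 in the poorest and 11 and 4 in the richest class, and 4 and 54 in the class with most parental sites.

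The largest bin increases were at sparse bins. Bin 9 to 10 Mb of chromosome 21 held 16, 13 and 26 sites against 4, 6 and 7 (log2 difference 1.52). Bin 8 to 9 Mb of chromosome 10, which holds GATA3, a transcription factor of T cells and epithelia, held 25, 34 and 42 against 18, 18 and 25 (0.83). The others were 97 to 98 Mb of chromosome X (0.70), the last bin of chromosome 18 at 80 to 81 Mb (0.65) and the first of chromosome 1 (0.63).

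The largest bin decreases included denser ones. Bin 133 to 134 Mb of chromosome 6, which holds EYA4, a transcriptional coactivator, and TCF21, a mesenchymal transcription factor, held 289, 330 and 375 sites against 507, 492 and 532 (log2 difference -0.45 ± 0.045, SE; limma adjusted p = 1.03e-08, and 5.58e-11 with the linked pair averaged). Bin 34 to 35 Mb of chromosome 4, with no coding gene, held 55, 55 and 63 against 101, 94 and 104 (-0.60). Bin 101 to 102 Mb of chromosome 13, which holds ITGBL1, held 106, 111 and 170 against 209, 186 and 201 (-0.47). Bins 240 to 241 Mb of chromosome 1, with FMN2 and RGS7, and 104 to 105 Mb of chromosome 8, with RIMS2, differed by -0.52 and -0.40. The calls on chromosomes X, 18 (last bin), 10 and 1 (both bins) were each lost without at least 1 library, with limma adjusted p up to 0.149.

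Whole chromosomes differed by small amounts. Of 23 chromosomes 8 passed (34.8%; limma, adjusted). Chromosome 17 rose most, by 0.08 on the log2 scale, with 4069, 4021 and 3994 of every 100000 sites against 3795, 3806 and 3842. Chromosomes 15 and 16 (0.07 and 0.06) rose and chromosomes 6, 4 and X fell by 0.06, 0.05 and 0.05 in the fit with 6 libraries and with the linked pair averaged. Chromosomes 9 and 14 (both 0.03) passed only with 6 libraries. The directions are relative to the total number of sites. Scaled by the median chromosome, 18 chromosomes passed and all were lower, with a median log2 difference of -0.07. The median chromosome was 17, which rose most, in every library but hyperactive replicate 1, where it was 9. That scale therefore moved the other chromosomes down. Without hyperactive replicate 2, 5 passed.

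**Figure D5:**
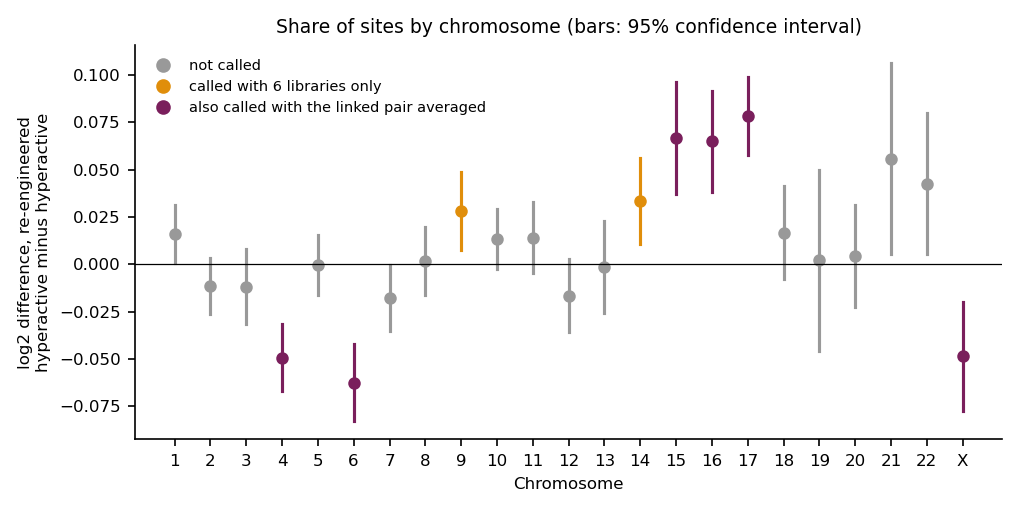
Difference in the log2 share of sites between the groups for each chromosome, points with 95% confidence intervals (limma, 3 libraries in each group); grey points were not called, orange points were called with 6 libraries only and purple points also with the linked pair averaged. Chromosomes 15, 16 and 17 lie above 0 and chromosomes 4, 6 and X below it, all within 0.08.

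The same re-engineering was set beside its effect without the hyperactive changes. The start-site share fell by 0.98 percentage points here and fell by 1.54 in the parental background, where the means were 2.38% ± 0.020 and 3.92% ± 0.16 (SD, n = 3 each). The difference of the differences was 0.56 points (permutation of the library labels within each background, p = 0.005, the smallest that the 400 relabellings can give, and 0.00937 adjusted over 15 measures). The median peak width differed by 23.0 bases here and 8.33 there (adjusted permutation p = 0.00937).

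The differences in both-strand positions and in recurrence moved with the number of sites, which was higher with re-engineering in the parental background. As deposited, the both-strand share fell by 2.73 points here and fell by 0.64 there (adjusted permutation p = 0.00937). Recurrence between replicates fell by 12.5 points here and fell by 2.54 there, with the same adjusted permutation p. Each recurrence value was formed with replicates of its true group and not formed anew after relabelling. That permutation therefore cannot decide whether recurrence differed between the backgrounds. With the 12 libraries thinned to equal numbers, the both-strand share fell by 1.59 points here and fell by 1.65 there (difference of differences 0.06, permutation p = 0.95). Recurrence at equal numbers fell by 7.67 points here and fell by 6.43 there (difference of differences -1.24, permutation p = 0.595). Its means were 13.7% ± 0.10 and 21.4% ± 0.14 here, and 11.3% ± 0.052 and 17.7% ± 0.23 there (SD, n = 3 each). Each value is formed from pairs of libraries, so the values of a group are not independent. Those of the hyperactive group rest on 2 pairs, both with replicate 3, and their SD is not a spread between independent libraries. Both permutations at equal numbers relabelled values that still held the fall common to the backgrounds, unlike those of the values as deposited. That widens the range of relabelled differences, so they cannot decide whether the backgrounds differed. Thinning was chosen after seeing the data.

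Some measures went the other way in the parental background. The re-engineered parental libraries had more sites than the parental ones, with a log2 difference of 0.47 against -0.18 here. With re-engineering the share of sites in genes fell by 0.77 points in the parental background and was 0.86 points higher here. The share on the strand of the gene fell by 0.98 points there and was 2.26 points higher here. Hot windows were chosen in the parental libraries themselves, which favours a fall there, so this share does not compare the backgrounds on equal terms. The hot-window share fell by 1.67 points there and fell by 1.31 points here, and that difference of differences did not pass (adjusted permutation p = 0.175). Neither did those of the gene-rich share (adjusted p = 0.64), the remote share (adjusted p = 0.22) and the target sequence (adjusted p = 0.179).

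The test of genes between backgrounds took those with at least 60 sites over the 12 libraries, so it held sparser genes than the test above. By gene, the re-engineering difference itself differed between the backgrounds at 1 of 12462 genes tested (0.00802%, limma, adjusted), PCDH7. It fell by 0.21 here and by 0.57 in the parental background, where the libraries held 1263, 1299 and 1278 sites with re-engineering and 1452, 1286 and 1379 without. Over the whole genome those libraries held 549765, 570354 and 542484 sites with re-engineering and 437446, 346918 and 420845 without. Neither this test nor that of bins was run at equal site numbers, so the part of library size was not tested. Of 2658 bins 25 passed (0.941%), 13 with the higher (0.489%) and 12 with the lower (0.451%) difference here. With the linked pair averaged 14 passed (0.527%), 9 with the higher (0.339%) and 5 with the lower (0.188%). The 25 included the bin of chromosome 4 from 30 to 31 Mb, which holds most of PCDH7, and the bin of chromosome 12 from 75 to 76 Mb, which fell by 0.23 here and by 0.42 in the parental background.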

How the data were processed

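Insertion positions were read from 27 libraries, and 6 entered the comparison. Reads were handled with cutadapt 3.4 and HISAT2 2.2.1.0 on hg38 (GRCh38.p5), per the submitters' processing notes. The peak caller, its threshold and any removal of duplicates were not given in the sources used here. The deposited tables give, for each stranded peak, the authors' signal in reads (height and summed coverage), and no peak was listed under 5 reads. A value that is constant within each table was taken as the library's read total. Heights are PCR reads without molecular identifiers.

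From these, each peak gave 1 site at its insertion edge, and the TTAA at promoter sites checked this definition and the build. Genes, start sites and promoter sequences came from RefSeq GRCh38.p14, which has the same chromosome coordinates as hg38; 59098 genes were placed. Sites were counted for every gene they lay in, without strand, so overlapping genes share sites. Counts of sites per 100000 sites of the library, with 0.5 added, were tested as log2 values with limma 3.58.1 (trend) in R 4.3.3 for features with at least 60 sites over the 6 libraries. The test of the difference between backgrounds took features with at least 60 sites over its 12 libraries. Single measures were tested with two-sided exact permutation tests in Python 3.11.15 (numpy 2.4.6, scipy 1.17.1, pandas 2.3.3), and the scripts were tested on simulated data.

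Named were the 12 coding genes with the largest increase and the 12 with the largest decrease that passed with 6 libraries and with the linked pair averaged, with no overlap between groups. Further named were up to 3 called genes of each list, 5 bins in each direction and the 5 tallest sites of each group. Of the called list genes, 1 is counted but not reported here by name. Members, lists and rules were chosen with earlier results of these data known. Alternatives varied the height minimum, depth, number of sites, filter, pseudocount, scale, weights, bin width, the replicate block and single libraries. The other libraries were not used here, except those with parental and re-engineered parental piggyBac.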

Additional observations from a re-analysis of the deposited data

Results flagged for a closer look

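These results stand out because the difference made by re-engineering was not the same in the hyperactive and the parental background, by a test of the difference between the differences. At PCDH7 the log2 difference in sites was 0.36 above that in the parental background, and 25 of the 1-Mb bins differed in the same test. The test was not run at equal site numbers for genes or bins. On the log2 scale the difference was -0.65 for the number of sites, -0.18 for sites per read and 0.37 for the median peak height. For the shares, in percentage points, it was 1.63 in genes, 0.74 at gene ends, 0.56 at start sites and 3.24 on the strand of the gene. It was -9.99 for recurrence between replicates, -2.09 for positions on both strands and -0.82 for the tallest sites. With libraries thinned to equal numbers, the differences were -1.24 for recurrence and 0.06 for both strands (permutation p = 0.595 and 0.95). Those permutations kept the fall common to the backgrounds in the relabelled values and cannot decide whether the backgrounds differed. For recurrence the permutation as deposited cannot decide it either, since its values were formed within the true groups before relabelling. The median peak width differed by 14.7 bases between the backgrounds. The linked hyperactive replicates enter all of these as separate libraries.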

How the results depend on the processing

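The 15 measures kept their direction under the alternatives run, apart from the following. Sites per read, with a log2 difference of -0.08, turned to 0.10 in peaks of at least 10 reads. The target sequence share turned to 0.12 with the linked pair averaged, and ranged from -0.28 to 0.24 with 1 library left out. The both-strand difference of -2.73 points was -1.59 at equal numbers of peaks, replicate sharing of -12.5 was -7.65 at equal site numbers, and the median height of 0.25 was 0.12 in peaks of at least 10 reads. Replicate sharing has no value without hyperactive replicate 3. The cause of these shifts was not tested.

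Gene calls (192) were 36 with the linked pair averaged, 11 with no filter, 127 at equal site numbers and 520 by summed height, and from 28 to 170 with 1 library left out. Bin calls (194) were 94, 121 at equal site numbers, 339 by summed height, 119 in 5-Mb bins, and from 87 to 220. Chromosome calls (8) were 18 scaled by the median chromosome, 16 by summed height, and from 5 to 9. Interaction calls were 12 genes with at least 300 sites, and 14 bins with the linked pair averaged. Calls in the lists (3) were 0 with the pair averaged or no filter, 8 scaled by the median gene or in peaks of at least 10 reads, 9 with at least 300 sites, 5 with voom or at equal file totals, 14 by summed height, and from 0 to 6.

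Replicate numbers did not pair the samples, with correlations of deviations of -0.0055, 0.0016 and 0.0034 over genes. With the replicate number as a block, 210 genes, 222 bins, 6 chromosomes and 7 list members passed. Among single named genes and bins, 558 alternative values kept their call and 86 lost it. Peaks under 5 reads were not listed, so rare insertions could not be seen at this depth.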
